A study of Mus musculus with 20 samples.

Results

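The acyl-CoA thioesterase genes Acot1, Acot2, Acot3, Acot4, Acot5, Acot6, Acot8, Acot9, Acot12 and Acot13 were followed in all 20 RNA-seq libraries of the study. The 10 genes were chosen by symbol, as members of 1 enzyme family, from the 54532 genes of the deposited count table. The choice was made with earlier results of these data known. Acot7, Acot10 and Acot11 carry the same family symbol but were not among the 10, and were counted with other thioesterases. The study profiled kidney and liver of male C57BL/6 mice in 4 groups of 5 libraries: wild-type kidney, wild-type liver, and kidney and liver labelled Lxrα-/-, a genotype meant to lack the oxysterol receptor encoded by Nr1h3. Libraries are named here by tissue and by the mouse number in their title (1, 3, 4, 5 and 6 for wild type, and 1 to 5 for the labelled knockout). A kidney and a liver with equal genotype and number were taken as tissues of 1 mouse. The age and diet of the mice, the deleted part of Nr1h3 and whether controls were littermates are not given in the sources used here.

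Acyl-CoA thioesterases cleave acyl-CoA into a free fatty acid and coenzyme A, the reverse of the step catalysed by the acyl-CoA synthetases. The type I enzymes Acot1 to Acot6 share a hydrolase fold and lie in 1 gene cluster: Acot1 is cytosolic, Acot2 is mitochondrial, and Acot3 to Acot6 are peroxisomal. The type II enzymes have an unrelated fold: Acot8 works in peroxisomes, Acot9 and Acot13 are found in mitochondria, and Acot12 hydrolyses acetyl-CoA in the cytosol. In liver, several type I genes are known targets of Ppara, the fatty acid receptor active in fasting and the target of fibrate drugs, and Lxrα is known as an activator of fatty acid synthesis.

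Total counts ran from 23421561 to 35376342 per library. Mitochondrially encoded genes took 50.8% of the counts of wild-type kidney 3, 7.21% of those of wild-type kidney 1 and 12.6 to 21.1% of those of the other 8 kidneys. Nr1h3 was not reduced in the libraries labelled knockout. It lay between 99.3 and 157 CPM (the count per library size, with TMM factors within a tissue) in labelled knockout kidneys against 49.5 to 55.0 in wild-type kidneys. The livers gave 144 to 189 against 85.4 to 119 CPM. The edgeR log2 differences were 1.27 ± 0.16 (SE, adjusted p = 0.00209) in kidney and 0.76 ± 0.12 (adjusted p = 0.00277) in liver. A count over a whole gene does not show a missing exon, so the labels remain unchecked by it, and every direction below is that of the libraries as labelled. Tissue identity was clear: the 10 hepatocyte markers fixed for this work summed to 71649.6 to 141712 CPM in livers. In kidneys they summed to 208 to 1242 CPM in wild type and 1414 to 3265 CPM in the labelled knockout. The 14 proximal tubule markers summed to 26707.3 to 60373.6 CPM in kidneys but at most 129.8 CPM in livers.

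The type I genes lie head to tail on the plus strand of chromosome 12 within 123489 bases (GRCm38). Their order is Acot2 (chr12:83987861-83993873), Acot1 (chr12:84009490-84018371), Acot4 (chr12:84038379-84048601), Acot3 (chr12:84052144-84060402), Acot5 (chr12:84069325-84076020) and Acot6 (chr12:84100654-84111349). The type II genes lie apart: Acot8 at chr2:164792765-164804882 (minus strand), Acot9 at chrX:155262443-155297654 (plus strand), Acot12 at chr13:91741512-91786148 (plus strand) and Acot13 at chr13:24817948-24831540 (minus strand). The modelled transcript of each type I gene has 3 exons, apart from that of Acot3 with 4. Acot1 and Acot2 are near copies, with 95.48% identical bases over 1239 aligned coding bases and a longest identical run of 273 bases. Acot3 and Acot5 come next with 85.39%. The other 13 pairs of the cluster lay between 73.68 and 84.12%.

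The starts of the coding sequences (GENCODE models on GRCm38) show how these copies differ. Capitals mark the 60 bases that align with the first 60 of Acot1, and small letters the coding bases before them. Acot2 carries 123 extra bases, the part that holds the leader known to send its enzyme to mitochondria, and then matches Acot1 at 50 of 60 bases. Acot3 carries 33 extra bases and matches at 38 of 60.
Acot1: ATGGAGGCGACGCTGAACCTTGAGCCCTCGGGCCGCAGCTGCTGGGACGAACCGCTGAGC
Acot2: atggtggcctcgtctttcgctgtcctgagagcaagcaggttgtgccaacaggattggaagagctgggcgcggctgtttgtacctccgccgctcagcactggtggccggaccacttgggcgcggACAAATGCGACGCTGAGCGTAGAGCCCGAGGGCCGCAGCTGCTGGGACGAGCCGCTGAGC
Acot3: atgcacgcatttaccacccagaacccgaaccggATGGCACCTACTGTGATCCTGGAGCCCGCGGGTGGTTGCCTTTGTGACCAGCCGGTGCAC

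Reads from shared stretches cannot be placed on a single gene, and how the authors' counting treated them is not given in the sources used here. Of all 100-base windows in the transcripts of Acot2, 17.1% also occurred in another of the 10 genes. The share was 12.4% for Acot1, 7.79% for Acot5, 4.27% for Acot3, 0.95% for Acot6 and 0.336% for Acot4. No such window was shared by Acot8, Acot9, Acot12 or Acot13. The split of counts between Acot1 and Acot2 is therefore uncertain, and the results were also computed with both summed. The antisense gene 4732463B04Rik overlaps Acot4 and Acot3, Snx21 overlaps Acot8, and 4833422C13Rik is antisense to Acot12. Whether counting used strand is not given, so reads of these partners cannot be told apart from those of the thioesterases. The protein-coding gene Gm49366 overlaps Acot4 and Acot3 on their own strand and had 0 counts in every library. How counting treated reads that fit both it and a thioesterase gene is not given.

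Promoter windows from 250 bases before to 50 bases after the start site were taken from RefSeq (GRCm38.p6), which held 8 of the 10 genes; Acot6 and Acot13 were not matched. The 4 windows below belong to the cluster genes with the 4 smallest p-values in liver. Capitals mark AGGTCA, the half-site of many nuclear receptors, and CCAAT, each searched on both strands, so that TGACCT and ATTGG are the same motifs on the minus strand.
Acot3 (GRCm38.p6 chr12:84051894-84052193, plus strand): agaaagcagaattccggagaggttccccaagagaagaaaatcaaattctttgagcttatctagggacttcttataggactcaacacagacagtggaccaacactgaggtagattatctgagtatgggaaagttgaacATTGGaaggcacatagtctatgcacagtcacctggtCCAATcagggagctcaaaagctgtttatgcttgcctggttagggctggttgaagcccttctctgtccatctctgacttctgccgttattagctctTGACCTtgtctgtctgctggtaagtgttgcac
Acot2 (GRCm38.p6 chr12:83987611-83987910, plus strand): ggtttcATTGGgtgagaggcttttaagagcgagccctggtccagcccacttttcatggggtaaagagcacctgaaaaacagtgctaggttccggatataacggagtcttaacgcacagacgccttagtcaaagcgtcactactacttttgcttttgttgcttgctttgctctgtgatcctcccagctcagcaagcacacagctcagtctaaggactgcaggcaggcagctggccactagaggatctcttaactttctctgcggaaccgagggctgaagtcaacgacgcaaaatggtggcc
Acot4 (GRCm38.p6 chr12:84038129-84038428, plus strand): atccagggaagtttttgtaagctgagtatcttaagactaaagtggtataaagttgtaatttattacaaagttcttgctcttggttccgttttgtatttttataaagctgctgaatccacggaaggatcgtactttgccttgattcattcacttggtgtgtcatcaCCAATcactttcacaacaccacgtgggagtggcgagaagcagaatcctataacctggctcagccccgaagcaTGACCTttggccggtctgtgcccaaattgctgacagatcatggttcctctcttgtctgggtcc
Acot1 (GRCm38.p6 chr12:84009252-84009551, plus strand): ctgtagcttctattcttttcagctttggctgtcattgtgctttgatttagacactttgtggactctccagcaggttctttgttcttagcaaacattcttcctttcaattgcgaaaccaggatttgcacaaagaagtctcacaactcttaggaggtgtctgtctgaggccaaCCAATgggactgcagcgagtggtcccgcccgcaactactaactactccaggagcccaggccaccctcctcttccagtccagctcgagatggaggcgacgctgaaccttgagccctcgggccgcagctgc

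AGGTCA was found in the windows of Acot3, Acot4, Acot5 and Acot12, and in 16.3% of all 32851 windows in the table. CCAAT was found in 7 of the 8 genes, all but Acot12, and in 37.4% of all windows. TATAAA was found in Acot4 and Acot9, and in 13.6% of all windows. AGGTCANAGGTCA, the exact direct repeat with 1 base between half-sites, was in 0.0396% of all windows, and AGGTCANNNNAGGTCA, with 4 bases between, in 0.0152%. Neither was in a window of the 8 genes. These are matches of letters in short windows only, and binding was not measured.

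Levels between genes were compared as FPKM, counts scaled to library size (with TMM factors within a tissue) and to the deposited gene length. FPKM of kidney and of liver are therefore not on the same scale and serve to order genes within a group. Acot13 stood first in every group, with 229 ± 74.4 FPKM in wild-type kidney and 77.9 ± 14.8 in wild-type liver (SD, n = 5). It made up 69.7% of the summed FPKM of the 10 genes in wild-type kidney and 64.3% in wild-type liver. Acot12 stood second, at 32.2 ± 8.66 FPKM in wild-type kidney and 26.1 ± 1.53 in wild-type liver. With both tissues scaled together its wild-type means were 87.4 CPM in kidney and 110 CPM in liver. In wild-type kidney Acot9, Acot1, Acot8, Acot2, Acot4 and Acot3 followed, from 16.9 down to 5.66 FPKM, and each neighbour in that order overlapped the next. Acot6 came ninth at 2.01 ± 0.53 FPKM, below every Acot3 value. In wild-type liver Acot8 came next at 6.64 ± 0.87 FPKM. Acot4, Acot1, Acot2, Acot9, Acot3 and Acot6 followed, from 3.32 down to 0.311 FPKM, with overlapping neighbours throughout. The order in labelled knockout kidney was that of wild-type kidney. In labelled knockout liver Acot9 (1.42 FPKM) stood above Acot2 (0.646), and Acot6 (0.204) above Acot3 (0.0897), each pair in the reverse of its wild-type order. The ranges of libraries overlapped within both pairs, as in wild-type liver. The plot of FPKM by library shows these levels.

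**Figure D1:**
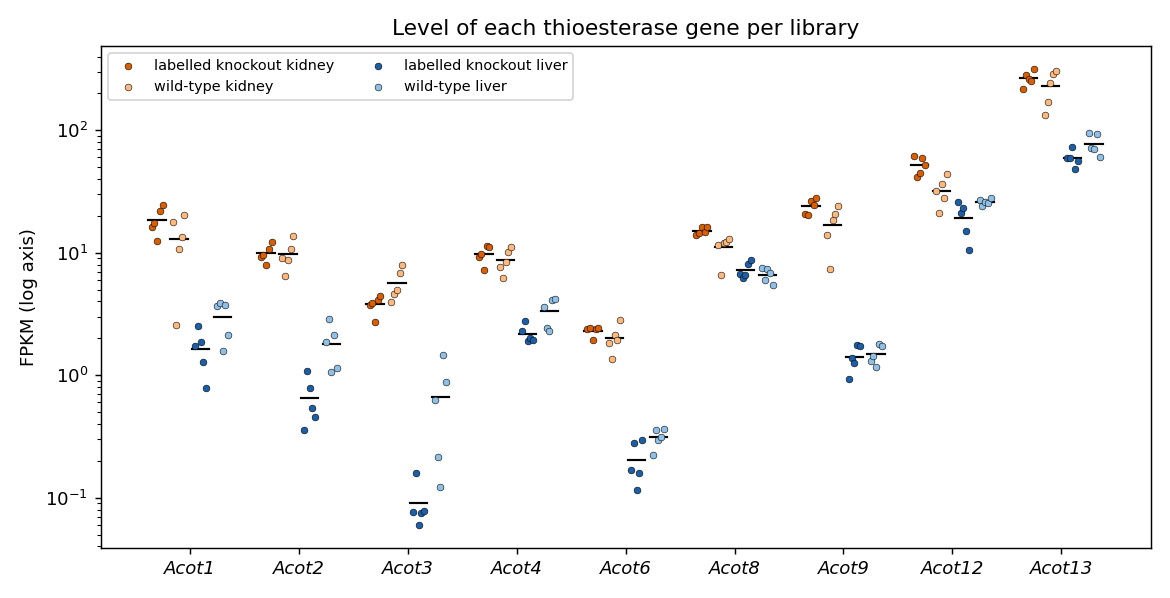
FPKM of 9 thioesterase genes (log axis) in each library, by group; each point is 1 library and the black line is the group mean. Acot13 is the highest in all 4 groups. Kidney and liver were scaled apart, so heights are compared within a tissue. Acot5, with 0 counts in every liver, is not drawn.

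Acot5 was close to the limit of detection. Wild-type kidneys 1, 3, 4, 5 and 6 held 7, 0, 1, 6 and 8 counts, labelled knockout kidneys 1 to 5 held 2, 6, 3, 5 and 4, and all 10 livers held 0. A count of 0 allows up to 3 counts, or 0.0861 to 0.126 CPM in these livers, for counting error only. The gene failed the filter on low counts and was not tested, and no fold is given for it.

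Kidney against liver in wild type asked where each thioesterase is expressed. Of the 9 genes tested, 7 were higher in kidney and 0 were higher in liver, where 29.6% of all 16645 genes tested were called higher in kidney, 24.2% in liver and 53.8% in either direction (edgeR, adjusted p under 0.05). The median log2 difference of the 9 was 1.49, against 0.05 for all genes tested. The difference was 2.87 ± 0.29 for Acot9, 2.45 ± 0.51 for Acot3, 2.06 ± 0.23 for Acot6 and 1.80 ± 0.29 for Acot2 (SE, n = 5 per tissue), with edgeR adjusted p = 1.62e-06, 0.00100, 4.41e-06 and 0.000135. In these 4 genes every kidney lay above every liver, as did 23.4% of all genes tested. Acot9, the mitochondrial type II enzyme, had 13.6 to 45.1 CPM in kidney and 3.36 to 5.29 CPM in liver when both tissues were scaled together. Acot1, Acot13 and Acot4 were also higher in kidney, by 1.49, 0.92 and 0.76 on the log2 scale, with some overlap between tissues.

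The exceptions were Acot8 and Acot12. Acot8 differed by 0.11 on the log2 scale (95% interval -0.32 to 0.54, edgeR adjusted p = 0.685). Acot12 had a kidney-minus-liver log2 difference of -0.33 (-0.76 to 0.09, edgeR adjusted p = 0.174). Without TMM scaling the median of all genes moved up by 0.64 on the log2 scale, Acot12 changed sign to 0.33 and Acot8 was called higher in kidney (0.79, edgeR adjusted p = 0.0127). With limma voom Acot12 was called lower in kidney (-0.31, adjusted p = 0.0335). Over 8 alternative settings the adjusted p reached 0.358 for Acot12 and 0.786 for Acot8. Calls for Acot1 and Acot4 were lost on leaving out wild-type mouse 6 (edgeR adjusted p = 0.0600) and mouse 4 (0.0555), in that order. Ppara was lower in wild-type kidney than in liver by a log2 difference of -2.70 ± 0.39 (edgeR adjusted p = 4.23e-05), and Nr1h3 by -1.55 ± 0.15 (1.23e-06).

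In liver, Acot3 and Acot2 were lower in the labelled knockout than in wild type, and no thioesterase was higher. Both are in the type I cluster, one peroxisomal and one mitochondrial. Of the 9 genes tested, 2 were called lower, where 4.08% of all 14822 genes tested were called lower, 1.94% higher and 6.02% in either direction (edgeR, adjusted p under 0.05). In no thioesterase gene did the 2 groups of livers stand wholly apart, as they did in the lower direction for 4.51% of all genes tested. Fitted differences were below 0 for 8 of the 9 genes, as for 50.5% of all genes, and the median was -0.61 against -0.00 for all genes tested. Unadjusted p-values under 0.05 in the lower direction were found for 7 of the 9, against 11.5% of all genes tested. The plot of genotype differences sets these beside kidney.

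**Figure D2:**
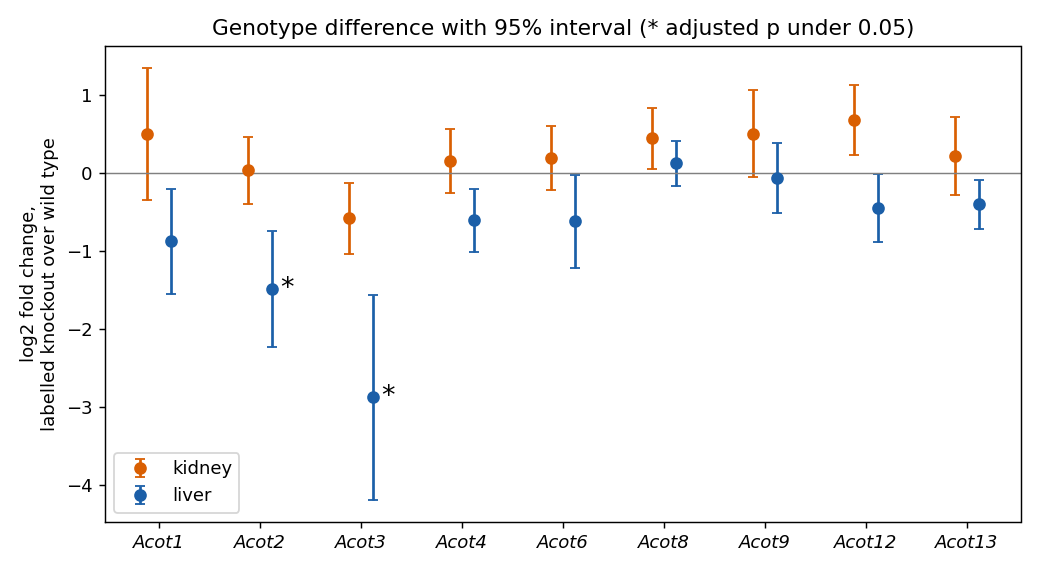
log2 fold change of the labelled knockout over wild type in kidney (orange) and liver (blue) for 9 thioesterase genes; points are edgeR estimates, bars 95% intervals, and a star marks an adjusted p under 0.05. Only liver Acot2 (-1.49) and Acot3 (-2.88) carry a star, and 8 of 9 liver points lie below 0.

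Acot3 encodes a peroxisomal enzyme for long-chain acyl-CoA. Wild-type livers 1, 3, 4, 5 and 6 had 2.17, 0.734, 0.421, 5.00 and 3.01 CPM, and labelled knockout livers 1 to 5 had 0.262, 0.545, 0.206, 0.260 and 0.270 CPM. The labelled knockout livers were all low, while wild-type livers spread over a wide range whose lowest, liver 4, fell below labelled knockout liver 2, so the groups overlapped. The counts behind these values were 12 to 154 in wild type and 5 to 13 in the labelled knockout. Acot3 fell by 2.88 on the log2 scale (SE 0.61, 95% interval -4.20 to -1.56, edgeR adjusted p = 0.0143). The call held on leaving out each liver in turn (edgeR adjusted p up to 0.0424) but was lost in 3 of 10 alternative settings, among them limma voom (-1.65, adjusted p = 0.214) and leaving out labelled knockout livers 4 and 5 together (edgeR adjusted p = 0.0881). Over the 10 settings its adjusted p ran from 2.69e-05 to 0.214.

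Acot2, the mitochondrial enzyme, had 4.07, 6.28, 2.32, 4.64 and 2.50 CPM in wild-type livers 1, 3, 4, 5 and 6. Labelled knockout livers 1 to 5 had 0.786, 2.39, 1.73, 1.18 and 1.002 CPM. Labelled knockout liver 2 was just above wild-type liver 4, and the other 4 lay below all wild-type livers. Acot2 fell by 1.49 on the log2 scale (SE 0.35, 95% interval -2.23 to -0.74, edgeR adjusted p = 0.0234). This call was lost on leaving out wild-type liver 3 or 5 or labelled knockout liver 4 or 5 (edgeR adjusted p up to 0.0633), with limma voom (adjusted p = 0.107), when Acot1 and Acot2 were summed (-1.01, edgeR adjusted p = 0.0720), and without labelled knockout livers 4 and 5 together. Over 10 alternative settings the adjusted p ran from 0.000675 to 0.125.

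Acot1, the cytosolic near copy of Acot2, had 14.4, 15.2, 6.18, 14.8 and 8.32 CPM in wild-type livers 1, 3, 4, 5 and 6. Labelled knockout livers 1 to 5 had 6.77, 9.93, 7.31, 5.00 and 3.08 CPM. Wild-type livers 4 and 6 lay within the range of the labelled knockout and the other 3 above it. The log2 difference was -0.88 ± 0.31 (SE, 95% interval -1.55 to -0.20) and did not pass the test (edgeR adjusted p = 0.128). Acot4, the peroxisomal enzyme known for succinyl-CoA, had 24.0, 16.1, 15.4, 27.2 and 28.0 CPM in wild-type livers and 15.4, 18.5, 12.6, 13.3 and 12.98 CPM in labelled knockout livers, in the same order of mice. Wild-type livers 3 and 4 lay within the range of the labelled knockout, and livers 1, 5 and 6 above it. Its log2 difference was -0.61 ± 0.19 (SE) with edgeR adjusted p = 0.0780. It passed with DESeq2 (adjusted p = 0.0412), without the filter on low counts (edgeR adjusted p = 0.0472) and without wild-type liver 4 (edgeR adjusted p = 0.0415), with a range of 0.0412 to 0.365 over 10 alternative settings.

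**Figure D3:**
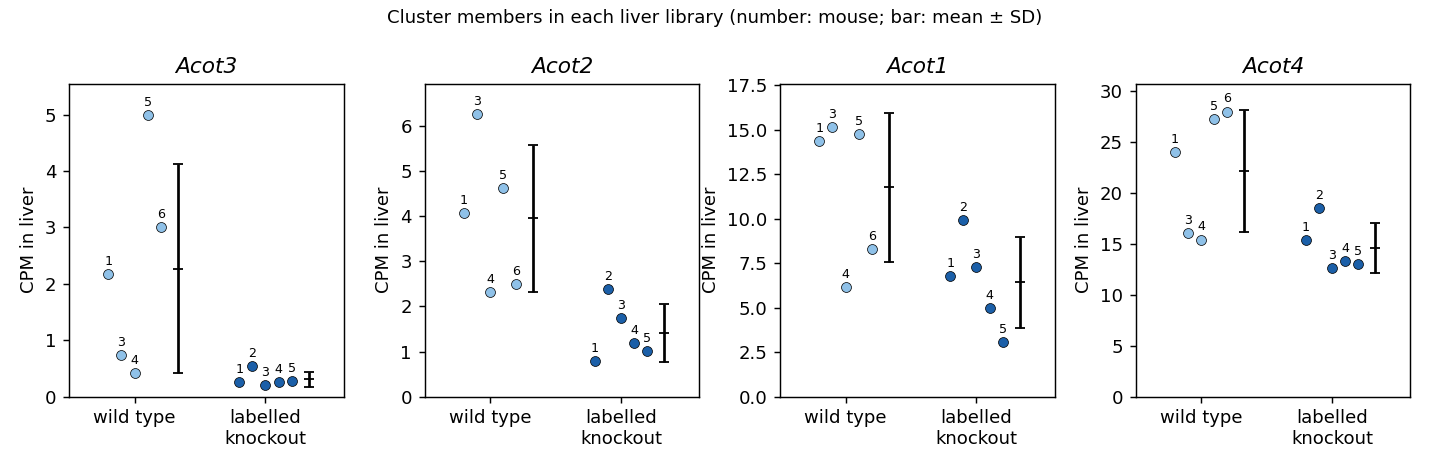
CPM (linear axes) of Acot3, Acot2, Acot1 and Acot4 in each liver; points are libraries with their mouse numbers, and bars are group means ± SD (n = 5). Wild-type liver 4 is among the lowest wild-type livers for all 4 genes, and the labelled knockout points lie low with some overlap.

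The wild-type livers varied together in part. Liver 4 had the lowest value of the 5 for Acot1, Acot2, Acot3 and Acot4, but liver 5 was highest for Acot3, liver 3 for Acot1 and Acot2, and liver 6 for Acot4. The coefficient of variation in wild-type liver was 81.8% for Acot3 and 41.3% for Acot2, against 5.87% for Acot12.

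The remaining liver genes did not pass the test. Acot6 had 1.43 to 2.35 CPM in wild type and 0.743 to 1.89 CPM in the labelled knockout (log2 difference -0.62 ± 0.28 SE, edgeR adjusted p = 0.231). Acot12, the acetyl-CoA hydrolase, had 88.8, 79.6, 85.7, 83.4 and 92.8 CPM in wild-type livers 1, 3, 4, 5 and 6. Labelled knockout livers 1 to 5 had 86.2, 69.3, 76.5, 49.7 and 34.6 CPM, with livers 4 and 5 well below the rest. Its log2 difference was -0.44 ± 0.20 (SE, edgeR adjusted p = 0.233). Acot13, the small enzyme that binds the phosphatidylcholine transfer protein, had 45.3 to 70.3 CPM in wild type and 35.7 to 54.6 CPM in the labelled knockout (-0.40 ± 0.15 SE, edgeR adjusted p = 0.141, and between 0.0442, without TMM scaling, and 0.436 over 10 alternative settings). Acot8 (0.13, 95% interval -0.16 to 0.42) and Acot9 (-0.07, -0.51 to 0.38) had edgeR adjusted p = 0.643 and 0.896.

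Labelled knockout livers 4 and 5 were also left out together, a choice made with earlier results of these data known. Without both, Acot3 (-2.74, edgeR adjusted p = 0.0881) and Acot2 (-1.27, adjusted p = 0.125) kept their direction and did not pass. Sums of cell markers also differed between the liver groups. Of all genes tested in liver, 4.08% were called lower, 1.94% were called higher and 50.5% were fitted below 0 (edgeR, adjusted p under 0.05 for calls). The 10 hepatocyte markers summed to 108547 to 141712 CPM in wild type and 71649.6 to 103415 CPM in the labelled knockout. Alb held a large part of these sums, with means of 74891.5 and 44649.6 CPM in that order. It was the 1 marker of the 10 called lower, and 5 were fitted below 0 and 5 above. The 6 Kupffer cell markers summed to 170.5 to 253 against 78.8 to 166 CPM, with 4 called lower, and the 8 lymphocyte markers to 21.9 to 26.9 against 14.5 to 20.4 CPM, with 4 called lower and 1 higher. Of the 6 stromal markers 3 were called lower, with sums of 162 to 356 against 108 to 211 CPM. Of the 6 endothelial markers 1 was called lower, with sums of 68.0 to 108 against 35.5 to 99.9 CPM. The 7 adipocyte markers summed to 81.1 CPM in wild-type liver 5 and to 4.53 to 6.81 CPM in the other wild-type livers. In labelled knockout livers they summed to 3.85 to 5.80 CPM, and of the 2 tested 0 were called. No hepatocyte marker was at 0 in a liver group. Their part in the thioesterase differences was not tested, and in whole tissue fewer cells of a type and less RNA per cell cannot be told apart.

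In kidney no thioesterase passed the test (edgeR, adjusted p under 0.05). Of all 16500 genes tested, 0.394% were called higher and 1.87% lower, 2.26% in either direction. DESeq2 called 1 of the 9, and 1151 of all 16500 genes. With limma voom 3 of the 9 were called, and 2151 of all 16500 genes. At an unadjusted edgeR p under 0.05, Acot12 and Acot8 were higher and Acot3 was lower, where 5.81% of all genes were higher and 14% lower past that limit, 19.8% in all. Fitted differences were above 0 for 8 of the 9 genes, as for 43.8% of all genes, and below 0 for Acot3, as for 56.2%. Acot2 changed sign without TMM scaling (-0.069) and with limma voom (-0.027). The median was 0.22, against -0.07 for all genes tested.

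Acot12 had 104, 69.0, 119, 92.6 and 145 CPM in wild-type kidneys 1, 3, 4, 5 and 6, and 204, 136, 148, 194 and 171 CPM in labelled knockout kidneys 1 to 5. Wild-type kidney 6 lay above labelled knockout kidney 2, and otherwise the groups were apart. The log2 difference was 0.68 ± 0.21 (SE, 95% interval 0.23 to 1.14, edgeR adjusted p = 0.109). It passed in 3 of 10 alternative settings, among them DESeq2 (adjusted p = 0.0267) and limma voom (0.0142), and on leaving out wild-type kidney 6 (edgeR adjusted p = 0.0389). Its adjusted p ran from 0.0142 to 0.260 over the 10 settings.

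Acot8, a peroxisomal enzyme of broad substrate range, had 23.3, 13.1, 23.8, 24.4 and 26.0 CPM in wild-type kidneys 1, 3, 4, 5 and 6. Labelled knockout kidneys 1 to 5 had 28.1, 29.0, 32.7, 29.3 and 32.2 CPM. Every labelled knockout kidney was above every wild-type kidney, as for 2.79% of all genes tested, yet the log2 difference of 0.45 ± 0.18 (SE) had an edgeR adjusted p of 0.199. The adjusted p was 0.0454 with limma voom and up to 0.495 under other settings. The overlapping gene Snx21 had 18.7 to 23.7 CPM in labelled knockout and 11.4 to 21.9 CPM in wild-type kidneys.

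Acot3 was the gene below 0 in kidney. Wild-type kidneys 1, 3, 4, 5 and 6 had 13.6, 15.8, 17.0, 23.5 and 27.3 CPM, and labelled knockout kidneys 1 to 5 had 12.8, 13.3, 9.31, 14.3 and 15.4 CPM. The groups overlapped through wild-type kidney 1. The log2 difference was -0.58 ± 0.21 (SE, edgeR adjusted p = 0.163), and it passed with limma voom (-0.67, adjusted p = 0.0175) and without wild-type kidneys 1 and 3 (-0.80, edgeR adjusted p = 0.0392), with adjusted p up to 0.376 under other settings.

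Acot1 depended on a single kidney for its spread. Wild-type kidneys 1, 3, 4, 5 and 6 had 69.7, 10.2, 42.1, 53.1 and 80.4 CPM, and labelled knockout kidneys 1 to 5 had 63.3, 68.9, 49.3, 86.3 and 95.3 CPM. Wild-type kidney 3, with 50.8% mitochondrially encoded counts, was far below the others. The log2 difference was 0.50 ± 0.40 (SE, edgeR adjusted p = 0.462). Acot9 had a log2 difference of 0.51 ± 0.26 (SE, edgeR adjusted p = 0.290), and its lowest value, 16.9 CPM, also came from wild-type kidney 3. Acot13, Acot6, Acot4 and Acot2 had log2 differences of 0.22, 0.20, 0.16 and 0.04 with edgeR adjusted p between 0.551 and 0.922. Without wild-type kidneys 1 and 3 those of Acot13, Acot4 and Acot2 were -0.070, -0.028 and -0.14.

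The 14 proximal tubule markers, genes of the kidney cells rich in peroxisomes and mitochondria, summed to 26707.3 to 41930.2 CPM in wild-type kidneys and 46472.5 to 60373.6 CPM in labelled knockout kidneys. Kap, a kidney gene known to respond to androgens, made up 53.0 to 77.0% of each sum, with 14147.5 to 31074 CPM in wild type and 30697.9 to 46164.2 CPM in the labelled knockout (edgeR adjusted p = 0.290). The other 13 markers summed to 10375.5 to 12559.8 against 12766.7 to 15774.6 CPM. Of the 14, 1 was called higher, where 0.394% of all genes were, and 13 were fitted above 0, as were 43.8% of all genes. Wild-type kidney 1 had the lowest sum on this scale, and wild-type kidney 3 by library size alone (22706.5 CPM against 34818).

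All stromal, lymphocyte, endothelial and podocyte markers tested in kidney were fitted lower in the labelled knockout, where 56.2% of all genes were below 0. Of all genes tested, 1.87% were called lower, and 14% were lower at an unadjusted edgeR p under 0.05. The 6 stromal markers summed to 207 to 602 CPM in wild type and 63.1 to 120.0 CPM in the labelled knockout, with 4 called lower. Of the 8 lymphocyte markers 2 were called lower, with sums of 19.9 to 31.5 against 7.66 to 17.9 CPM. Of the 6 endothelial markers 1 was called lower, Cdh5, the vascular cadherin (edgeR adjusted p = 0.0402), with sums of 194 to 249.99 against 77.7 to 205 CPM. Of the 5 podocyte markers 0 were called and 3 had an unadjusted edgeR p under 0.05, with a median log2 difference of -0.77 and sums of 229 to 366 against 83.7 to 294 CPM. The 7 distal nephron markers did not share this, with 0 called, 5 fitted below 0 and 2 above. Their median log2 difference was -0.08, against -0.07 for all genes tested, with sums of 2982 to 5865 against 2623 to 4448 CPM. The part of all these markers in the thioesterase values was not tested.

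To ask whether the tissues differed, the liver genotype effect was subtracted from the kidney one. This test uses the same 20 libraries as the comparisons above and is not independent of them. None of the 9 genes passed (edgeR), where 1.51% of all 17606 genes tested were called. All 9 fitted differences were above 0, as were 46.6% of all genes, and 7 had an unadjusted p under 0.05 in that direction, against 6.37% of all genes. The median was 0.83, against -0.04 for all genes tested. The 3 smallest adjusted p-values belonged to Acot12 (1.15 ± 0.30 SE, edgeR adjusted p = 0.0563), Acot2 (1.54 ± 0.40, 0.0576) and Acot3 (2.33 ± 0.64, 0.0698). These 3 genes passed with DESeq2 (adjusted p = 0.0111, 0.0101 and 0.0107) and without the filter on low counts (edgeR adjusted p = 0.0345, 0.0177 and 0.0155), and with limma voom Acot12 alone passed (adjusted p = 0.0120). Over 9 alternative settings their highest adjusted p were 0.186, 0.206 and 0.408. Over leaving out each mouse in turn, edgeR called between 0 and 2 of the 9.

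Along the cluster, liver differences were uneven. In 5' to 3' order the log2 differences were -1.49 for Acot2, -0.88 for Acot1, -0.61 for Acot4, -2.88 for Acot3 and -0.62 for Acot6. None of the 8 other genes tested within the cluster or 200 kb on either side was called in liver (log2 -1.08 to 0.11, edgeR). The lowest of them was the antisense gene 4732463B04Rik, which overlaps Acot4 and Acot3. It had 1.55, 1.28, 0.983, 1.27 and 3.16 CPM in wild-type livers 1, 3, 4, 5 and 6 and 0.486, 1.63, 0.454, 0.491 and 0.886 CPM in labelled knockout livers 1 to 5. Its log2 difference was -1.08 ± 0.42 (SE, edgeR adjusted p = 0.170, and 0.0482 without labelled knockout liver 2). In kidney 0 of 9 such genes were called (log2 -0.78 to 0.33, edgeR).

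**Figure D4:**
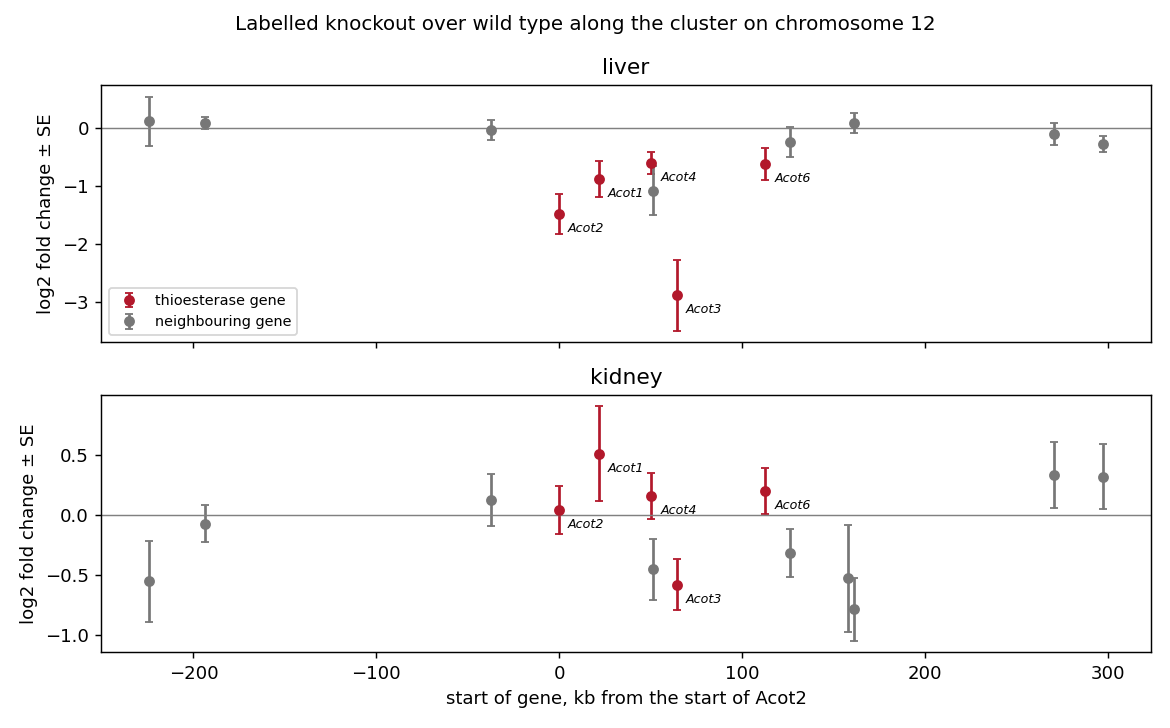
log2 fold change of the labelled knockout over wild type (point) ± SE (bar) against the distance of each gene's start from that of Acot2, in liver (top) and kidney (bottom, with a narrower vertical axis). Thioesterase genes are red and other genes grey; in liver the red points lie between -0.61 and -2.88 and the flanking grey points near 0, apart from the antisense gene at -1.08.

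The makeup of the cluster's counts differed by tissue. Acot1 and Acot4 held most counts in every group. These counts are not scaled to gene length, which is 6674 bases for Acot4 and 2196 for Acot2. By FPKM, Acot2 stood above Acot4 in wild-type kidney (9.70 against 8.73). In wild-type kidney Acot3 held 8.21 to 17.5% of the counts of the 6 genes, and in labelled knockout kidney 6.64 to 7.38%. The highest of these shares was that of wild-type kidney 3, and in CPM the kidney groups overlapped for Acot3. In liver Acot3 held 1.61 to 9.31% in wild type and 0.912 to 1.64% in the labelled knockout. Acot4 held 39.7 to 63.4% in wild-type and 55.8 to 67.5% in labelled knockout liver, against 30.7 to 45.9% and 32.5 to 35.6% in kidney. A share falls when another gene's share rises, so these are not separate changes.

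**Figure D5:**
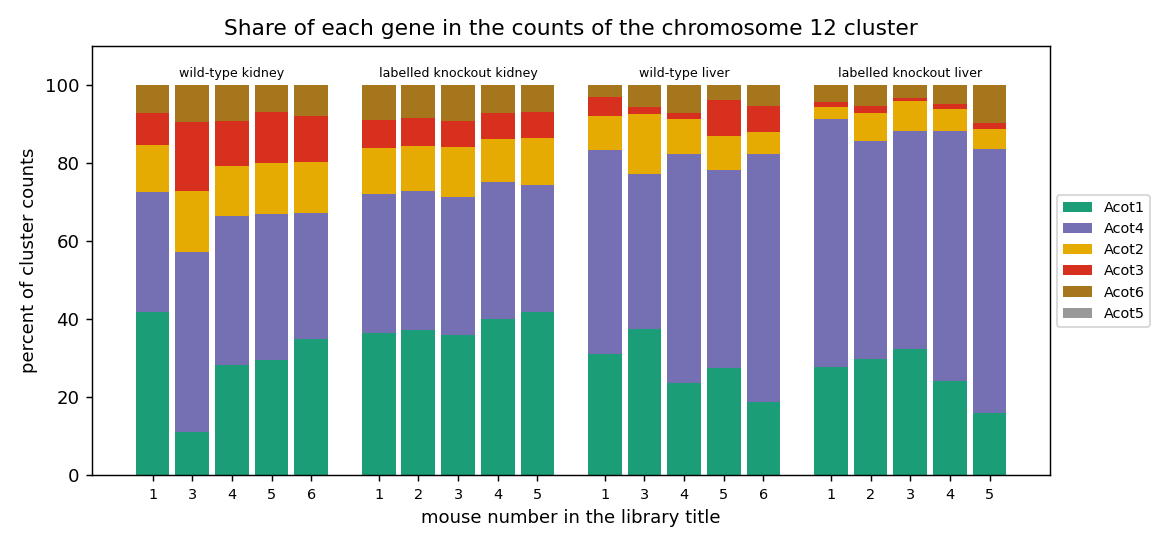
Percent of the summed counts of the 6 cluster genes held by each gene, with 1 stacked bar for each library, by group and mouse number. Acot3 is thinnest in the labelled knockout livers (0.912 to 1.64%), and Acot1 is low in wild-type kidney 3 (11.2%).

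Genes that act beside the thioesterases were described from lists. Their counts stand beside the 4.08% of all genes called lower and 1.94% called higher in liver, and 1.87% and 0.394% in kidney, and their medians beside -0.00 and -0.07 for all genes tested in liver and kidney. Of 12 other thioesterases, 9 were tested in each tissue: in liver Ppt1, the lysosomal palmitoyl-protein thioesterase, was lower (-0.44 ± 0.12 SE, edgeR adjusted p = 0.0495), and in kidney 0 were called. Among them Acot7 and Acot11 had kidney log2 differences of 0.35 and 0.31 (edgeR adjusted p = 0.358 and 0.272). Of the acyl-CoA synthetases, the enzymes that make the substrates, 3 of 16 were lower in liver and 1 was higher. Those lower were Acsl5 (-1.12, edgeR adjusted p = 0.00135), Acss3 (-2.12, 0.00461) and Acss2, the cytosolic acetyl-CoA synthetase (-1.30, 0.00853), and Acsm2 was higher (0.92, 0.0270). In kidney 1 of 15 was called, Acsf2, which was lower (-1.497, edgeR adjusted p = 0.0316).

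Of 25 known Ppara targets, 24 were tested in liver and 4 were lower, with a list median of -0.30. These were Cyp4a14 (-4.26, edgeR adjusted p = 0.00237) and Cyp4a10 (-2.54, 0.0218), fatty acid omega-hydroxylases, Angptl4 (-0.82, 0.00296), an inhibitor of lipoprotein lipase, and Vnn1, which breaks down pantetheine (-0.97, 0.0499). In kidney 0 of 23 were called (edgeR), and the list median was 0.33. Ppara itself had a log2 difference of -0.14 ± 0.14 (SE, edgeR adjusted p = 0.616) in liver and 0.11 ± 0.40 (0.890) in kidney. Of 18 genes of peroxisomal oxidation 1 was lower in liver, Abcd2, a transporter of very long-chain acyl-CoA (-3.45, edgeR adjusted p = 0.000818), a share close to that of all genes. In kidney 0 of 18 were called and 16 lay above 0, as did 43.8% of all genes, among them Ehhadh (0.85, edgeR adjusted p = 0.186), which is also on the Ppara list. Of 16 mitochondrial oxidation genes 0 were called in either tissue, with medians of -0.10 in liver and 0.38 in kidney. Of the 9 genes of coenzyme A turnover, Vnn1 was the 1 called lower among 8 tested in liver, and 0 of 9 were called in kidney.

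The difference between tissues was called higher for Abcd2 (3.23, edgeR adjusted p = 0.0334), Cyp4a10 (2.79, 0.0354), Acss2 (1.63, 0.0107) and Acox3 (1.11, 0.0339) among the genes of these lists reported here. For Ppara it was 0.25 (edgeR adjusted p = 0.834) and for Nr1h3 0.53 (0.237). Several of these list calls rested on the setting: those of Ppt1 and Vnn1 in liver were lost on leaving out 9 and 8 of the 10 livers in turn, and that of Acsf2 in kidney on leaving out 7 of the 10 kidneys. Cyp4a10 in liver was lost without wild-type liver 5 or labelled knockout liver 2 or 4 (edgeR adjusted p up to 0.0542), and Acsm2 without wild-type liver 3 or 6 or labelled knockout liver 2 or 5 (up to 0.0643). Of the differences between tissues, that of Acss2 was called on leaving out each of the 10 mice, and those of Abcd2, Acox3 and Cyp4a10 in 4, 2 and 2 of the 10.

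Genes with the most similar profile were sought by the root mean square difference of centred log2 CPM over the 20 libraries, among 14575 protein-coding genes. For Acot3, whose own profile had an SD of 2.15, the nearest were Slc1a3 (0.71), Mcoln2 (0.72) and Tmem26 (0.74). For Acot2 (SD 1.46) they were Spats2l (0.31), Nt5e (0.41) and Sytl3 (0.45). For Acot12 (SD 0.47) they were Pank1 (0.20), Samd8 (0.20) and Aldh9a1 (0.22). The 20 libraries span both tissues, so a shared difference between kidney and liver counts towards this likeness.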

How the data were processed

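RNA of kidney and liver, taken as tissues of 10 mice, was sequenced. Each library gave 1 column of a deposited table of raw counts for 54532 genes. The submitters' processing notes name HISAT2 2.0.5, StringTie, DESeq2 1.16.1 and mm10, with no role given; the counting tool, its treatment of reads that fit several genes and its use of strand are not given in the sources used here. A second table by the authors holds log2 FPKM for 15454 genes, those with a count in every library, and served as an alternative input. The p-values measure spread between the 5 libraries of a group.

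From the counts, each comparison was fitted across all genes with edgeR 4.0.16 in R 4.3.3 (filterByExpr with a minimum count of 10, TMM, quasi-likelihood F test, Benjamini-Hochberg over all genes tested, threshold 0.05). Kidney and liver were fitted apart for genotype, and all 20 libraries together for the difference between tissues. CPM, FPKM, marker sums and the limits for a count of 0 used library sizes scaled by TMM within a tissue, or over both where the text says so. Alternatives were DESeq2 1.42.0, limma 3.58.1 (voom, or trend on the log2 table), other scalings and filters, Acot1 with Acot2 summed, a replicate block, a joint fit and leaving out libraries. The steps were tested on simulated data with 200 changed genes. No libraries held identical counts. The genes named beyond the 10 are Nr1h3, Ppara, up to 4 per list with the smallest p in a tissue, and the 3 nearest profiles of 3 thioesterases. Acot7, Acot10, Acot11, Acox3, Kap, Alb, Cdh5, and genes overlapping or beside the 10, were named after their values were seen. The 10 genes and the lists were chosen with earlier results of these data known. One list gene that the naming rule would give is not reported here.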

Additional observations from a re-analysis of the deposited data

Results flagged for a closer look

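In 3 of 36 groups of 5 libraries examined, 1 library lay apart from the other 4 by more than Dixon's 95% limit, and chance gives about 1 in 20. For Acot3 in labelled knockout liver it was liver 2, with 0.545 CPM against 0.270 CPM for the next. For Acot6 in labelled knockout kidney it was kidney 3, with 12.3 CPM against 15.3 CPM for the next above it. For Acot8 in wild-type kidney it was kidney 3, with 13.1 CPM against 23.3 CPM for the next; this is the library with 50.8% mitochondrially encoded counts.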

How the results depend on the processing

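The number of the 9 tested thioesterases called in kidney (0) became 1 with DESeq2, 3 with limma voom and 1 without wild-type kidneys 1 and 3, and 0 to 1 on leaving out each library. In liver (2 called) it became 0 with limma voom, 0 without labelled knockout livers 4 and 5, and 1 to 3 on leaving out each library. For the difference between tissues (0 called) it was 3 with DESeq2, 3 without the filter, 1 with limma voom, and 0 to 2 on leaving out each mouse. In wild-type kidney against liver (7 called) it was 6 to 7 on leaving out each mouse.

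Of all genes, 373 were called in kidney. This was 1151 with DESeq2, 2151 with limma voom, 948 with all 20 libraries in 1 fit, 237 from the log2 FPKM table, 590 without wild-type kidneys 1 and 3, and 99 to 921 on leaving out each library. In liver it was 893, with 1408 under DESeq2 and 575 to 913 on leaving out each library. For the difference between tissues it was 265, with 611 under DESeq2, 681 under limma voom, 176 without TMM scaling, 176 without labelled knockout livers 4 and 5, and 137 to 337 on leaving out each mouse. In wild-type kidney against liver it was 8954, and 7729 to 9413 on leaving out each mouse.

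Signs changed in kidney for Acot2 (-0.069 without TMM scaling, -0.027 with limma voom, -0.14 without wild-type kidneys 1 and 3), for Acot4 (-0.028) and Acot13 (-0.070) without those kidneys, and for Ppara (-0.084 without TMM scaling). In liver Acot8 was -0.029 without labelled knockout livers 4 and 5, and between wild-type tissues Acot12 was 0.33 without TMM scaling. On leaving out single libraries or mice, log2 differences crossed 0 for Acot2 in kidney (-0.057 to 0.19), Ppara in kidney (-0.21 to 0.73), Acot9 in liver (-0.16 to 0.064), Ppara in the difference between tissues (-0.045 to 0.92) and Acot8 between wild-type tissues (-0.0083 to 0.22). The cause of these shifts was not tested.

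Title numbers shared by both genotypes do not pair the libraries by the rule used: deviations of equal-numbered libraries correlated at 0.09 to 0.23 in kidney and -0.043 to -0.0023 in liver. Of the 8 such libraries in each tissue, 5 kidneys and 0 livers correlated best with their own number. With that replicate block edgeR called 1 of the 9 thioesterases in kidney (Acot12, adjusted p = 0.0373) and 902 genes in all, and 1 in liver (Acot2, with Acot3 at 0.0730) and 307 genes in all. Kidney and liver of equal title correlated at -0.17 to 0.39 over 10 pairs, and a block for the mouse left the counts at 0 and 7 of 9 for the comparisons across tissues. Depth limits Acot5, with at most 8 counts in a library, and Acot3 in labelled knockout liver, with 5 to 13.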
